A study of Homo sapiens with 8 samples.

Results

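The contrast examined was one between responses in A549, an established cell line from a human lung adenocarcinoma: the response of each gene to forced expression of MGA minus its response to knockdown of MYC. All 8 of the 8 libraries enter it, and all 11218 genes that passed the filter on low counts, of 57820 listed, were tested. The libraries form 4 groups of 2. In the overexpression experiment, A549 cells held either the vector alone or one expressing MGA, and in the siRNA experiment they received siNC, a control siRNA, or siMYC, an siRNA against MYC. All groups share the A549 background. The labels give neither the promoter of the vector, nor the siRNA sequences, nor the time from treatment to harvest, and nothing says that the replicates A and B were separate cultures, so p-values measure the spread between these libraries, which may be technical. A positive value of the contrast, called the interaction here, means a gene was higher with MGA, relative to the empty vector, than with siMYC, relative to siNC.

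MYC is a transcription factor that pairs with MAX, binds the E-box CACGTG and raises the expression of genes for ribosome production, translation and nucleotide synthesis. MGA is a large protein with a T-box domain and a second DNA-binding domain of the same kind as that of MYC. It also pairs with MAX, and is part of the repressive Polycomb complex PRC1.6, which is known for silencing E2F and germline genes. The series title names MYC target genes as genes that MGA represses, and the interaction shows where the transcript response to MGA was unlike that to loss of MYC.

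The libraries held 820428 to 2129006 expected counts. MGA stood at 121.6 and 81.5 normalised counts per 1000000 (CPM) in the empty vector libraries and at 102500 and 103700 in the MGA libraries, where it took 9.54% and 9.68% of all counts. The MGA values check the MGA labels. MYC stood at 219 and 182.5 CPM with siNC and at 48.3 and 41.1 with siMYC, a fall of the targeted gene. MYC also differed with MGA, from 234 and 241 CPM to 296 and 347, a difference of 0.43 on the log2 scale (SE 0.12, adjusted p = 0.025 in edgeR). That call was lost without either empty vector library (adjusted p = 0.17 without A and 0.14 without B), without MGA replicate B (0.27) and with upper-quartile size factors (0.069), library sizes alone (0.12) or DESeq2 (0.12). The epithelial keratins KRT7 (2240 to 2770 CPM), KRT8 (1670 to 3600) and KRT18 (874 to 2340) were high in every library. The keratin KRT19 stood at only 6.95 to 12 CPM in the overexpression experiment and 40.2 to 110 in the siRNA experiment. The epithelial adhesion gene EPCAM stood at 0 to 1.2 CPM in the overexpression experiment and 3.68 to 10.4 in the siRNA experiment. CDH1, another, stood at 16.1 to 62.4 CPM over all libraries. The leukocyte genes PTPRC and CD3E and the endothelial genes CDH5 and VWF had no counts in any library. Other leukocyte markers did have counts. As a plain share of all counts, the 10 on the list summed to 213 and 203 per 1000000 with the empty vector and 158 and 165 with MGA. With siNC they summed to 27.1 and 25 and with siMYC to 49.8 and 56.2.

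Responses differed between the experiments for 2076 of 11218 genes (18.5%) at an adjusted p under 0.05 in edgeR. Of these, 1154 genes (10.3%) were higher with MGA than with siMYC and 922 (8.22%) were lower, and 1016 differed by at least 1 on the log2 scale. The split depended on how libraries were scaled and on the MGA and MYC rows. With TMM and these rows left out, 891 genes were higher and 1102 lower, with a median interaction of all genes of -0.052. With RLE the split was 1001 to 994 (median -0.006). With all rows it was 1154 to 922 with TMM, 804 to 1188 with upper-quartile scaling and 714 to 1357 when only library sizes were used. Here the median interaction of all genes moved from 0.033 to -0.086 and -0.139. Differences smaller than this shift are not read as a direction below. Without MGA replicate A, 1309 genes were called, 713 higher and 596 lower. Without empty vector replicate B, 1373 were called, 573 of them lower, and without empty vector replicate A the lower genes numbered 577.

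Most of the 2076 genes had a called response in 1 experiment only. For 1491 genes, 71.8% of those called, the siMYC response passed the test and the MGA response did not. For 224 (10.8%) it was the MGA response alone, and for 150 (7.23%) neither response passed by itself. Fitted values of the 2 responses had opposite signs for 1000 of the 1491 and for 1463 of the 2076, which selection by the interaction favours. The count was 3444 among the 9142 genes without an interaction call. Overexpression libraries held 820428 to 1176890 expected counts and siRNA libraries 1398805 to 2129006, so a missing MGA call is not a lack of response. Both responses passed in the same direction with a larger siMYC response for 56 genes and a larger MGA response for 11. Both passed in opposite directions for 144 genes (1.28% of the genes tested), of which 95 fell with MGA and rose with siMYC (0.847%) and 49 rose with MGA and fell with siMYC (0.437%). The 49 include MYC, whose fall with siMYC is the manipulation itself and whose MGA call was fragile, as given above. As background, MGA changed 1005 genes (8.96%), 556 up (4.96%) and 449 down (4%), and siMYC changed 4370 (39%), 2130 up (19%) and 2240 down (20%). Of the 449 genes that MGA lowered, 214 (47.7%) also fell with siMYC and 95 (21.2%) rose. Of the 556 that MGA raised, 177 (31.8%) also rose with siMYC and 49 (8.81%) fell. Across all 11218 genes the log2 fold changes of both experiments had a Pearson r of 0.113 and a Spearman rho of 0.163, given as a description since genes are not independent.

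**Figure D1:**
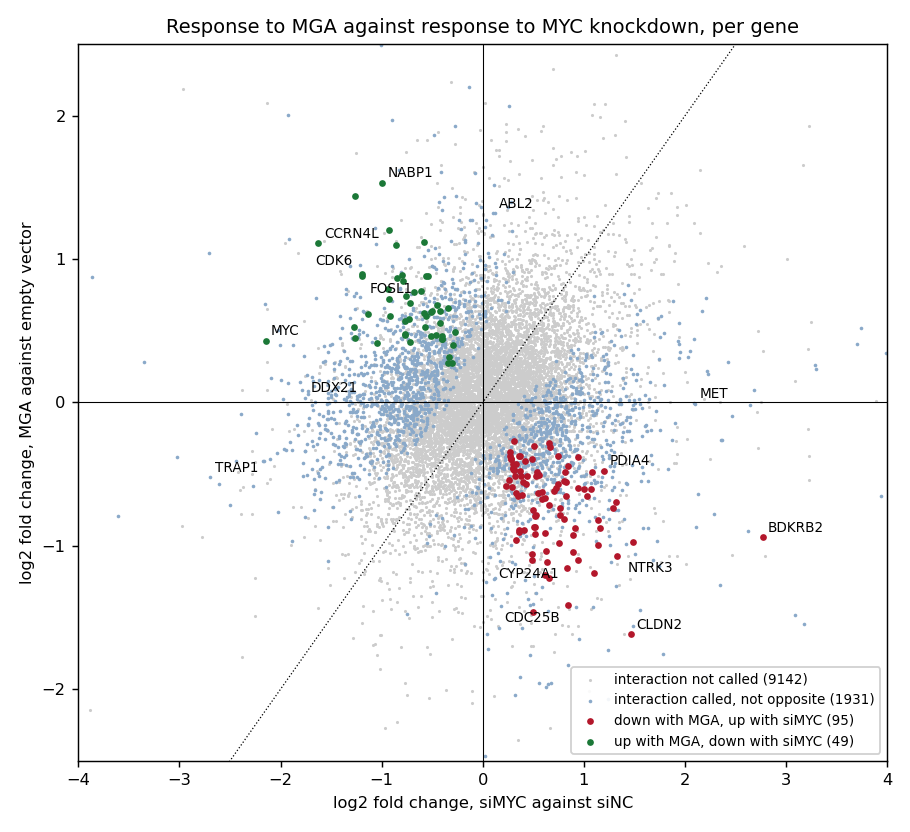
Log2 fold change with MGA against empty vector (y axis) plotted on the log2 fold change with siMYC against siNC (x axis), 1 point a gene, with the dotted line where both are equal. The 95 genes that fell with MGA and rose with siMYC lie at lower right and the 49 with the reverse at upper left. MGA itself is left out, and 68 genes including MGA lie outside the axes.

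The control groups were not alike, and this touches every value of the interaction. The siNC and empty vector libraries differed by at least 2-fold for 1740 of the genes tested (15.5%), for 327 of the 2076 with an interaction call (15.8%) and for 36 of the 144 opposite genes (25.0%). Each response is measured against its own control, but experiment and control cannot be told apart as the source of a level that differs. The part of these starting levels in the responses was not tested. The treated libraries did not overlap with their controls in either experiment for 94 of the 95 genes that fell with MGA and rose with siMYC and for all 49 of the reverse class, beside 52.6% of all genes tested with MGA, 67.6% with siMYC and 36.5% in both. Nothing is read from this count, since genes were chosen by passing both tests. The exception, AC093734.1, was named after its values were seen and is uncertain. It stood at 35.9 and 3.60 CPM with the empty vector and 0 and 20.3 with siMYC, and was listed at 0 in the other 4 libraries.

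Genes that fell with MGA and rose with siMYC had a median log2 fold change of -0.65 with MGA and 0.61 with siMYC, and a median interaction of -1.31. Only 6 of the 95 moved at least 2-fold in both. Genes that rose with MGA and fell with siMYC had medians of 0.63 and -0.72 and a median interaction of 1.39, and 2 of the 49 moved at least 2-fold in both. These medians follow from how the genes were chosen. Membership was sensitive to single overexpression libraries. Without empty vector replicate A, B, MGA replicate A or B the first class held 50, 42, 40 and 41 genes and the second 17, 15, 20 and 20. When each of the 8 libraries was left out in turn, 17 and 5 genes kept their class every time, while the interaction call itself held every time for 94 of 95 and 49 of 49. In DESeq2 39 and 7 genes kept their class.

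Since MYC and MGA both act through MAX at E-boxes, the promoters of the opposite genes were read from RefSeq (GRCh38.p14), 250 bases before each annotated start. An entry was matched for 113 of the 144 genes and for 9061 of the genes tested. The E-box CACGTG, which reads the same on both strands, was present in 6 of 74 promoters (8.11%) of the genes that fell with MGA and rose with siMYC and in 3 of 39 (7.69%) of the reverse class, beside 9.2% of the genes tested. TCACACC, a T-box core searched on both strands, was found in 2.7% and 2.56%, beside 2.36%. The E2F motif GCGGGAA, also on both strands, was found in 4.05% and 10.3%, beside 9.3%. The shares are descriptions of these windows and none stands for binding. The promoters that hold the E-box are shown because this is the element both proteins share, with CACGTG in capitals and up to 20 bases on each side, 5′ to 3′ on the strand of the gene. The genes of these windows were named for the motif and some were chosen after their values were seen. The first 6 belong to genes that fell with MGA and rose with siMYC.
ACTG1: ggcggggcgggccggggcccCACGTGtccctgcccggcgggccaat
CD164: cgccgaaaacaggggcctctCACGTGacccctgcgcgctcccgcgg
MLPH: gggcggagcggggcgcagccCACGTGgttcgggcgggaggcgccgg
OIP5-AS1: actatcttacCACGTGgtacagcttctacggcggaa
TOMM20: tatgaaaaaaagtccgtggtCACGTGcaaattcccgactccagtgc
TUG1: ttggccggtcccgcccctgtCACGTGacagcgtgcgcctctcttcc
The windows lie in ACTG1 (chr17:81512919-81512964, minus strand), CD164 (chr6:109382476-109382521, minus strand), MLPH (chr2:237487196-237487241, plus strand), OIP5-AS1 (chr15:41283740-41283775, plus strand), TOMM20 (chr1:235128980-235129025, minus strand) and TUG1 (chr22:30969168-30969213, plus strand). Counted as bases before the start, the E-boxes sit at 145, 34, 35, 240, 168 and 77 in the same order. The remaining 3 belong to genes that rose with MGA and fell with siMYC.
HERPUD1: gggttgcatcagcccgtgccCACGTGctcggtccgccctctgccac
ILK: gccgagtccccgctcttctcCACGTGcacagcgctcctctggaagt
TASP1: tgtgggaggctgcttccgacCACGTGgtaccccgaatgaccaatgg
They lie in HERPUD1 (chr16:56931963-56932008, plus strand), ILK (chr11:6603524-6603569, plus strand) and TASP1 (chr20:13638980-13639025, minus strand), with the E-box at 159, 230 and 73 bases before the start.

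Promoters of CLDN2, CDK6 and AEN follow, since these are opposite genes whose class held in each fit that left out a library and whose 250 bases hold no CACGTG. Capitals in AEN mark TTCCCGC, the reverse complement of the E2F motif, and none of the 3 motifs was found in the windows of CLDN2 and CDK6.
CLDN2: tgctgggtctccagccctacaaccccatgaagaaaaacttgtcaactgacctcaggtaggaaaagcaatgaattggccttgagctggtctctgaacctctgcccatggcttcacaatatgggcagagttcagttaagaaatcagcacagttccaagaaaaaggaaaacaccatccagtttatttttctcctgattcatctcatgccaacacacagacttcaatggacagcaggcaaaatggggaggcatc
CDK6: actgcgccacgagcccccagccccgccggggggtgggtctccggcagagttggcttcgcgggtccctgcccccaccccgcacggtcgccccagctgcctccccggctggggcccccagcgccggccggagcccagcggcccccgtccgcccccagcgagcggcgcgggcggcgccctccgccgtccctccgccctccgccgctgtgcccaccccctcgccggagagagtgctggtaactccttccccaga
AEN: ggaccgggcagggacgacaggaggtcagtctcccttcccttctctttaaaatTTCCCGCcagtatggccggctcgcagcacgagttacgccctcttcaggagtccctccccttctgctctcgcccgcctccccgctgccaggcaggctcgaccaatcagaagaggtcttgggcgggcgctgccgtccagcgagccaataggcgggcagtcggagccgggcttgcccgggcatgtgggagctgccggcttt
These windows are chrX:106899914-106900163, plus strand for CLDN2, chr7:92836574-92836823, minus strand for CDK6 and chr15:88621090-88621339, plus strand for AEN.

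Genes that fell with MGA and rose with siMYC were ranked by the larger p of the 2 responses. The first 15 included secreted proteins, steroid-metabolising enzymes and receptors. CLDN2, a claudin that forms cation pores in tight junctions, stood at 115 and 179 CPM with the empty vector, 46.5 and 49.1 with MGA, 106 and 124 with siNC, and 292 and 350 with siMYC. The controls of both experiments started at similar levels, and the treated libraries lay on opposite sides of all 4. Its log2 fold change was -1.62 with MGA (SE 0.21, adjusted p = 5.6e-06) and 1.47 with siMYC (SE 0.13, adjusted p = 1.3e-09), an interaction of -3.08 (SE 0.24, adjusted p = 7.2e-10). CYP24A1, the hydroxylase that inactivates vitamin D, stood at 797 and 808 CPM with the empty vector and 379.5 and 369 with MGA, and at 1209 and 983 with siNC and 2274 and 1915 with siMYC. It was lowest in the MGA and highest in the siMYC libraries. The log2 fold changes were -1.10 (SE 0.11, adjusted p = 7.1e-08) and 0.94 (SE 0.09, adjusted p = 2.9e-09), and the interaction was -2.04 (SE 0.14, adjusted p = 6.9e-11). CLDN2 and CYP24A1 were the 2 opposite genes that kept their class in all 20 alternatives run.

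NTRK3, the receptor of neurotrophin-3, stood at 161 and 162 CPM with the empty vector, 78.5 and 74.8 with MGA, 186.5 and 186 with siNC and 461 and 476 with siMYC. Its controls were also close, and no library of a treated group overlapped with its control. The interaction was -2.40 (SE 0.17, adjusted p = 1.7e-10), from -1.07 with MGA and 1.33 with siMYC. IGFBP4, a secreted protein that binds insulin-like growth factors, stood at 1739 and 1959 CPM with the empty vector, 1184 and 1203 with MGA, 2655 and 2819 with siNC and 3872 and 4138 with siMYC. Here the siNC level was above the empty vector level, and both treatments moved it away from its own control, by -0.63 and 0.55 on the log2 scale with an interaction of -1.18 (SE 0.10, adjusted p = 5.6e-09).

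AKR1C1, AKR1C2 and AKR1C3, aldo-keto reductases that reduce steroids and carbonyl compounds and known NRF2 targets, fell together with MGA and rose together with siMYC. AKR1C3 stood at 595 and 619 CPM with the empty vector, 369 and 361 with MGA, 889 and 1005 with siNC and 1518 and 1709 with siMYC, an interaction of -1.5 (SE 0.13, adjusted p = 2.2e-09). AKR1C1 stood at 421 and 448.5 CPM with the empty vector, 236 and 224 with MGA, 344 and 373 with siNC and 533 and 568 with siMYC, an interaction of -1.53 (SE 0.14, adjusted p = 6.8e-09). Neither gene's treated libraries overlapped with their controls. AKR1C2 differed less, with log2 fold changes of -0.63 and 0.33 and an interaction of -0.96 (SE 0.12, adjusted p = 2.6e-06), and its siMYC call was lost without siMYC replicate B (0.21, adjusted p = 0.065). Reads of these close copies can be divided between them by the counting. Summed over the 3 genes, the log2 fold changes were -0.72 (SE 0.08) and 0.50 (SE 0.07) and the interaction was -1.22 (SE 0.11, adjusted p = 5.6e-09).

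The matrix genes named here belong to a list of which 4 of 40 tested members were in this class, beside 0.847% of all genes tested. TGFBI, a secreted matrix protein named for its induction by TGF-beta, stood at 1788 and 1897 CPM with the empty vector, 1382 and 1323 with MGA, 2093 and 2027 with siNC and 3843 and 3528 with siMYC. The siMYC libraries stood far above the other 6, and the fall with MGA was the smaller of its responses, at -0.45 beside 0.84, with an interaction of -1.28 (SE 0.10, adjusted p = 7.2e-10). COL4A1, a collagen of basement membranes, stood at 707 and 759 CPM with the empty vector, 500.0 and 535 with MGA, 364 and 409 with siNC and 619.5 and 512 with siMYC. Its siMYC level overlapped with its MGA level, so that the opposite direction is seen only against each control. The interaction was -1.06 (SE 0.14, adjusted p = 3.4e-06), and the MGA call was lost without MGA replicate A (-0.45, adjusted p = 0.057). COL4A2, which assembles with COL4A1, and LAMB1, a laminin chain of the same membranes, had interactions of -0.88 (SE 0.13, adjusted p = 1.2e-05) and -0.76 (SE 0.13, adjusted p = 9.1e-05). Their MGA calls were lost without MGA replicate A (adjusted p = 0.056 and 0.081), and that of COL4A2 also without MGA replicate B (0.08) and empty vector replicate B (0.17). PDIA4, a disulfide isomerase of the endoplasmic reticulum, stood at 531 and 517 CPM with the empty vector, 371 and 382 with MGA, 239 and 219 with siNC and 530.4 and 520.4 with siMYC. The siMYC level equalled that of the empty vector within the spread of these libraries, while siNC was the lowest group. Its log2 fold changes were -0.48 and 1.20 and the interaction was -1.68 (SE 0.13, adjusted p = 6.3e-10).

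The remaining genes of the 15 were more varied. ANKRD52, a regulatory subunit of protein phosphatase 6, had an interaction of -1.37 (SE 0.17, adjusted p = 1.6e-06), and CD164, a sialomucin whose promoter window is shown above, one of -1.38 (SE 0.17, adjusted p = 1.0e-06). NPY4R, a receptor of pancreatic polypeptide, fell with MGA by 1.20 and rose with siMYC by 0.61 on the log2 scale. OIP5-AS1 is a long noncoding RNA that overlaps OIP5 on the other strand, and whether the counting used strand is not given in the sources used here. It stood at 126 and 94.7 CPM with the empty vector, 64.8 and 54.9 with MGA, 79.3 and 78.1 with siNC and 178 and 172 with siMYC. Its interaction was -2.03 (SE 0.22, adjusted p = 1.8e-07), but MGA no longer passed without empty vector replicate A (-0.65, adjusted p = 0.097), and on the deposited TPM scale its MGA difference was positive. TRIM34 had 0 and 0.583 CPM with siNC, so its fitted interaction of -6.73 depends on a control near 0, and it overlaps a read-through model. BDKRB2, the bradykinin B2 receptor, stood at 71.8 and 60.0 CPM with the empty vector, 35.6 and 32.7 with MGA, 22.9 and 12.3 with siNC and 134 and 96.4 with siMYC. Its interaction of -3.71 (SE 0.34, adjusted p = 1.2e-08) came mostly from siMYC, and its MGA call (-0.94, adjusted p = 0.02) was lost without any 1 of the 4 overexpression libraries, with adjusted p from 0.064 to 0.2, and in DESeq2 (0.083).

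**Figure D2:**
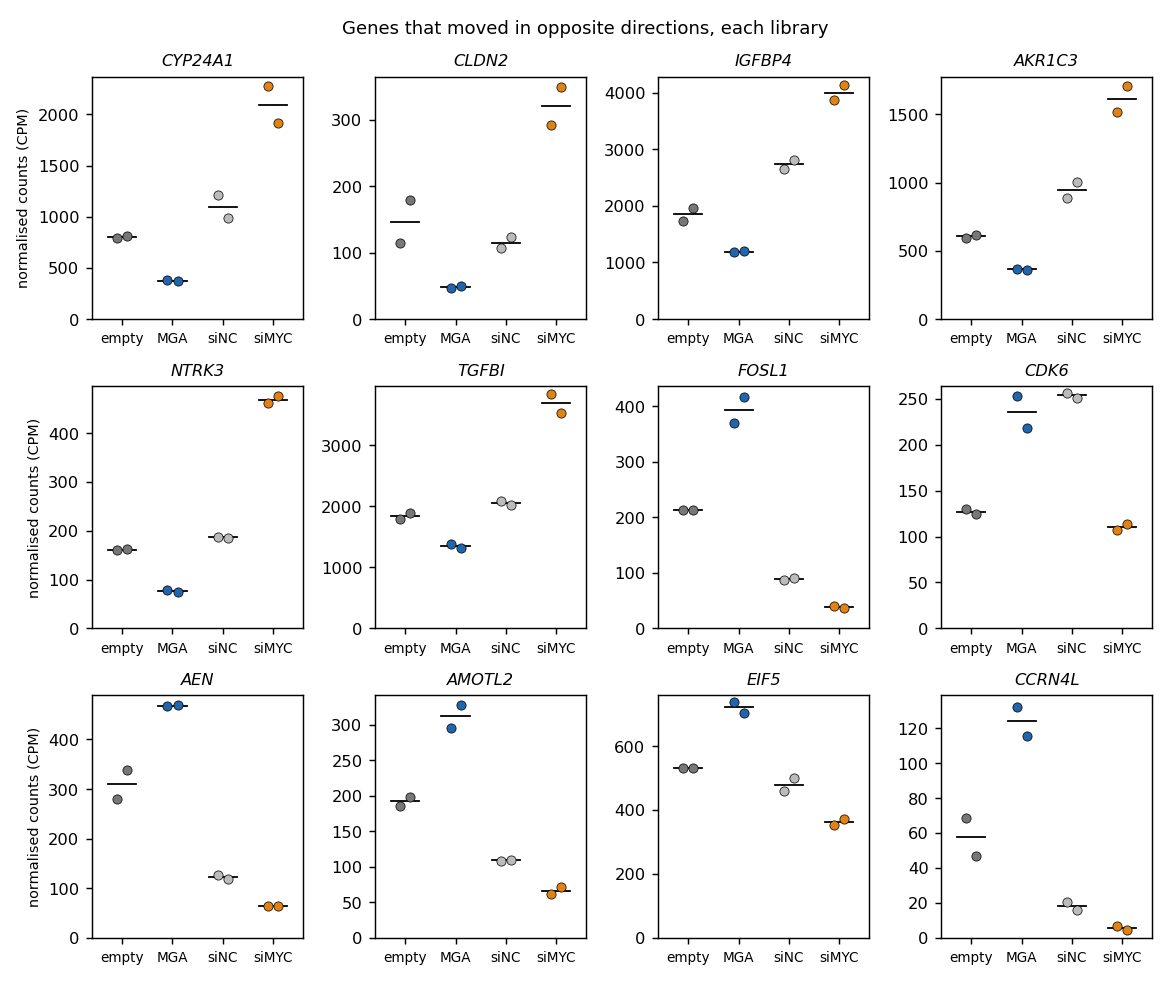
Normalised counts (CPM, linear axes from 0) of 12 opposite genes in each library, with a bar at the mean of the 2 libraries. In CYP24A1, CLDN2, IGFBP4, AKR1C3, NTRK3 and TGFBI the MGA points lie below and the siMYC points above their controls, and in FOSL1, CDK6, AEN, AMOTL2, EIF5 and CCRN4L the reverse holds.

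The reverse class, up with MGA and down with siMYC, included regulators of growth and stress. FOSL1, a subunit of the AP-1 transcription factor, stood at 213 and 213.5 CPM with the empty vector, 369.5 and 417 with MGA, 87.9 and 89.8 with siNC and 40.0 and 37.4 with siMYC. The siRNA controls lay well below the empty vector libraries, by 1.26 on the log2 scale, and siMYC was lower still. Its log2 fold change was 0.88 with MGA (SE 0.11, adjusted p = 5.7e-06) and -1.19 with siMYC (SE 0.15, adjusted p = 3.7e-07), an interaction of 2.07 (SE 0.19, adjusted p = 8.6e-09). CDK6, the kinase that drives entry into S phase with cyclin D, stood at 129.7 and 125 CPM with the empty vector, 253 and 218.5 with MGA, 256.5 and 251 with siNC and 107.5 and 114 with siMYC. Its MGA level came near its siNC level and its siMYC level near that of the empty vector, so the sign rests on each control. The log2 fold changes were 0.90 (SE 0.13, adjusted p = 3.4e-05) and -1.20 (SE 0.11, adjusted p = 1.7e-09), and the interaction was 2.09 (SE 0.17, adjusted p = 1.2e-09).

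AEN, a nuclease induced by p53, stood at 280.2 and 338 CPM with the empty vector, 468 and 468.5 with MGA, 126 and 118 with siNC and 63.9 and 65.0 with siMYC. Every library of the overexpression experiment lay above every library of the siRNA experiment. Its interaction was 1.52 (SE 0.17, adjusted p = 3.1e-07), from 0.60 with MGA and -0.92 with siMYC. AMOTL2, an angiomotin that binds YAP, stood at 186 and 199 CPM with the empty vector, 296 and 328 with MGA, 109 and 109.6 with siNC and 62.0 and 71.2 with siMYC, an interaction of 1.41 (SE 0.18, adjusted p = 2.3e-06). CCRN4L, also called nocturnin, an enzyme that acts on NADP coenzymes, stood at 68.3 and 46.8 CPM with the empty vector, 132 and 116 with MGA, 20.7 and 15.7 with siNC and 6.89 and 4.30 with siMYC. The siMYC level was the lowest of these, and the interaction was 2.74 (SE 0.40, adjusted p = 1.4e-05). EIF5, the factor that triggers GTP hydrolysis at the start codon, stood at 530.2 and 530.0 CPM with the empty vector, 739 and 703 with MGA, 459 and 499 with siNC and 353 and 372 with siMYC. Its interaction was 0.85 (SE 0.12, adjusted p = 1.7e-05), and the MGA call was lost without MGA replicate A (0.41, adjusted p = 0.054).

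Further genes of this class were less firm. MAP2K3, a kinase upstream of p38, had log2 fold changes of 0.75 and -0.76 and an interaction of 1.5 (SE 0.22, adjusted p = 1.2e-05). MGA no longer passed without empty vector replicate A (adjusted p = 0.097) and MGA replicate B (0.066). ILK, the integrin-linked kinase, had an interaction of 1.31 (SE 0.20, adjusted p = 2.5e-05), and lost its MGA call without any 1 of the 4 overexpression libraries (adjusted p from 0.074 to 0.11), with library sizes alone (0.051) and in DESeq2 (0.1). The general transcription factor subunit TAF2, the splicing factor SLU7, the calcium pump ATP2B1 and the import factor TOMM34 had interactions of 1.64, 1.39, 0.84 and 1.46. The MGA call of each was lost with empty vector replicate B left out (adjusted p = 0.12, 0.059, 0.11 and 0.061), and those of TAF2, ATP2B1 and TOMM34 also without MGA replicate B (0.062, 0.13 and 0.11). Those of ATP2B1 and TOMM34 were lost without empty vector replicate A as well (0.12 and 0.16), and that of ATP2B1 without MGA replicate A (0.086), with upper-quartile size factors (0.051) and with library sizes alone (0.091). The siMYC calls of SLU7 and TOMM34 were lost without siNC replicate B (adjusted p = 0.051 and 0.052), and DESeq2 left TAF2, ATP2B1 and TOMM34 without an MGA call (0.059, 0.073 and 0.12) and all 4 without a siMYC call (0.051 for TAF2, 0.096 for SLU7, 0.051 for ATP2B1 and 0.12 for TOMM34). CBWD6 and NPIPB5 belong to families of near-identical copies, so their interactions of 2.13 and 1.72 are uncertain, and both lost the MGA call without empty vector replicate A (0.12 and 0.14) and MGA replicate B (0.11 and 0.13). DDX60L, a relative of an antiviral helicase, stood at 323 and 273 CPM with the empty vector and 47.1 and 46.1 with siNC, a control difference larger than its interaction of 1.24. It lost its MGA call without empty vector replicate B (0.35, adjusted p = 0.18), MGA replicate A (adjusted p = 0.067) and MGA replicate B (0.058). The threonyl-tRNA synthetase TARS (1.15, SE 0.16, adjusted p = 6.3e-06) and the pre-ribosome factor RRP12 (1.80, SE 0.23, adjusted p = 2.2e-06) lost their MGA calls with upper-quartile size factors (adjusted p = 0.055 and 0.085), library sizes alone (0.1 and 0.12), in DESeq2 (0.083 and 0.18), without MGA replicate B (0.24 and 0.096) and with empty vector replicate A left out (0.15 and 0.51). That of TARS was also lost without empty vector replicate B (0.1) and that of RRP12 without MGA replicate A (0.25).

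**Figure D3:**
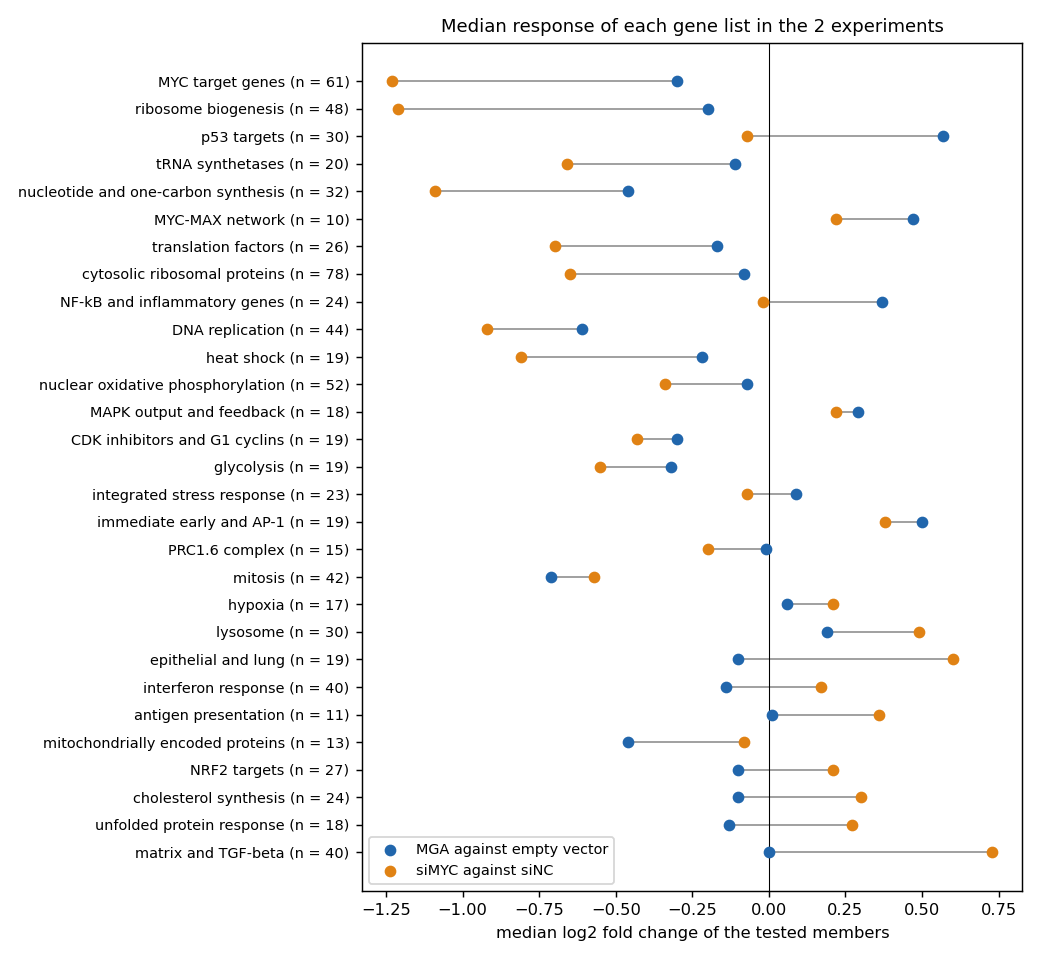
Median log2 fold change of the tested members of each gene list with MGA (blue) and with siMYC (orange), with lists of at least 10 tested members ordered by the median interaction. Ribosome biogenesis and MYC target genes lie farther below 0 with siMYC than with MGA, and the matrix list lies at 0 with MGA and 0.73 with siMYC.

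Beyond single genes, the responses parted in ribosome production, which MYC is known to drive. Of 48 ribosome biogenesis factors, 39 were higher in the interaction and 0 lower, beside 10.3% and 8.22% of all genes, with a median of 1.03 beside 0.033 for all genes. The factors fell with siMYC (46 of 48, median -1.21), while with MGA 6 fell, 1 rose and the median was -0.20. The higher genes numbered 33 to 35 with other size factors, 27 in DESeq2, 12 in limma on log2(TPM + 1) and 20 in glmTreat, which tests against a fold of 1.5. With siMYC 20% of all genes fell, and with MGA 4% fell and 4.96% rose. DDX21, a nucleolar RNA helicase, stood at 558 and 546 CPM with the empty vector, 551 and 579.5 with MGA, 536.5 and 570.3 with siNC and 156 and 173 with siMYC. The 6 libraries other than siMYC overlapped, and the interaction of 1.79 (SE 0.13, adjusted p = 2.0e-10) came with an MGA response of 0.03 (adjusted p = 0.88). BOP1, which processes the large subunit, had an interaction of 2.27 (SE 0.22, adjusted p = 3.5e-08). NPM1, the nucleolar chaperone nucleophosmin, fell in both, from 1333 and 1256 to 905 and 909 CPM with MGA and from 2025 and 2005 to 659 and 651 with siMYC. Its log2 fold changes were -0.51 and -1.62, so that the difference of 1.11 (SE 0.11, adjusted p = 2.2e-08) was one of size. NOP56, a core protein of box C/D particles, likewise fell by 0.42 with MGA and by 1.78 with siMYC, with an MGA call that was lost without MGA replicate A (adjusted p = 0.21) or empty vector replicate B (0.17).

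Cytosolic ribosomal proteins showed the same pattern at a smaller scale. Of 78, 63 were higher in the interaction and 0 lower, with a median of 0.56, and 77 fell with siMYC beside 4 with MGA. The count was 41 with library sizes alone, 44 with upper-quartile size factors, 56 with RLE, 40 in DESeq2, 23 in limma on log2(TPM + 1) and 4 in glmTreat, all higher. As background, 10.3% of all genes were higher, and 20% fell with siMYC and 4% with MGA. RPS2 stood at 1580 and 1670 CPM with the empty vector, 1634 and 1596 with MGA, 2033 and 2207 with siNC and 1021 and 956 with siMYC, an interaction of 1.09 (SE 0.11, adjusted p = 2.5e-08). RPL4 had an interaction of 0.80 (SE 0.10, adjusted p = 2.2e-06) and RPS12 one of 0.98 (SE 0.13, adjusted p = 3.0e-06), both with no MGA call.

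Further lists of MYC-driven growth followed. In the list of 63 MYC target genes, 61 passed the filter on low counts, 42 of which were higher and 1, lactate dehydrogenase LDHA, lower, with medians of -0.30 with MGA and -1.23 with siMYC. The LDHA call was lost without any 1 of the 4 overexpression libraries, siNC replicate A or siMYC replicate B. The higher genes numbered 28 in DESeq2, 11 in limma on log2(TPM + 1) and 24 in glmTreat. In the main fit 10.3% of all genes were higher and 8.22% lower, the background for each list of this paragraph. MYC itself and some genes of other lists are members, so the lists are not independent of each other. TRAP1, a mitochondrial chaperone, fell from 166 and 158 to 108 and 119 CPM with MGA and from 215 and 209 to 34.9 and 29.5 with siMYC, an interaction of 2.18 (SE 0.20, adjusted p = 1.3e-08). The smaller MGA response (-0.52) lost its call without any 1 of the 4 overexpression libraries (adjusted p from 0.06 to 0.21) and in DESeq2 (0.13). ODC1, the rate-limiting enzyme of polyamine synthesis, stood at 215 and 229 CPM with the empty vector, 272 and 285 with MGA, 322 and 309.6 with siNC and 138 and 136 with siMYC. Its MGA difference of 0.32 did not pass the test (adjusted p = 0.07), and its interaction was 1.52 (SE 0.15, adjusted p = 3.4e-08). Of 26 translation factors, 14 were higher and 1, EIF4B, was lower, among them PABPC1, the poly(A)-binding protein, at 0.98 (SE 0.11, adjusted p = 1.6e-07). The EIF4B call was lost without either empty vector library, MGA replicate B, siNC replicate A or either siMYC library, and in DESeq2. Of 20 tRNA synthetases, 12 were higher and 0 lower, and YARS, which charges tyrosine, stood at 1.36 (SE 0.19, adjusted p = 9.1e-06). In limma on log2(TPM + 1) the higher translation factors numbered 5 and the synthetases 1, in glmTreat 3 and 2, and in DESeq2 10 and 7.

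Among 32 genes of nucleotide and one-carbon synthesis, 14 were higher and 1, the CTP synthase CTPS1, was lower, the latter lost without either empty vector library, MGA replicate A, either siNC library or siMYC replicate A. The higher genes numbered 8 in DESeq2, 4 in limma on log2(TPM + 1) and 5 in glmTreat. In the main fit 10.3% of all genes were higher and 8.22% lower. MTHFD2, a mitochondrial folate enzyme, stood at 213 and 204 CPM with the empty vector, 225 and 234 with MGA, 326 and 272 with siNC and 74.9 and 82.2 with siMYC. The siMYC libraries were far below the rest, and the interaction was 2.07 (SE 0.17, adjusted p = 1.9e-09) with no call for MGA (0.14, adjusted p = 0.57). PAICS, an enzyme of purine synthesis, fell with both, by 0.77 with MGA and by 2.03 with siMYC, an interaction of 1.26 (SE 0.19, adjusted p = 2.0e-05). Of 54 nuclear genes of oxidative phosphorylation, 52 passed the filter, and 5 were higher and 0 lower, a share near the background, including cytochrome c1 (CYC1) at 1.26 (SE 0.17, adjusted p = 6.6e-06) and NDUFA6, named after its value was seen.

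In both cell cycle lists genes fell with MGA and with siMYC. Of 43 mitosis genes 42 passed the filter, and 20 fell with MGA and 34 with siMYC and none rose, with medians of -0.71 and -0.57. In the interaction 1 was higher and 2 were lower (7.14%, beside 18.5% of all genes), and the median was -0.13. As background of both lists, 4% of all genes fell with MGA and 20% with siMYC. TOP2A, the topoisomerase that untangles chromosomes, fell from 480.5 and 511 to 244.5 and 278 CPM with MGA and from 1124 and 1083 to 818 and 701 with siMYC. Its siMYC level stayed above the empty vector level, so the controls differed more than the treatments moved it. The interaction of -0.39 (SE 0.14, adjusted p = 0.043) was lost without any 1 of the 4 overexpression libraries, siNC replicate B or siMYC replicate A (adjusted p from 0.054 to 0.29). HMMR, a spindle protein, had an interaction of -0.86 (SE 0.27, adjusted p = 0.027) and ECT2, a regulator of cytokinesis, one of 0.51 (SE 0.17, adjusted p = 0.033). The first was lost without empty vector replicate A, either MGA library, siNC replicate B or siMYC replicate A (adjusted p from 0.068 to 0.15), and the second without either empty vector library, MGA replicate A, siNC replicate B or siMYC replicate B (0.058 to 0.25) and with upper-quartile size factors (0.11). Without single libraries the higher members numbered 0 to 2 and the lower 0 to 2. Of 44 DNA replication genes, 15 fell with MGA and 38 with siMYC, with medians of -0.61 and -0.92. In the interaction 7 were higher (15.9%, beside 10.3% of all genes) and 0 lower, with a median of 0.37. The higher ones numbered 4 without MGA replicate A, 2 in DESeq2, 0 in limma on log2(TPM + 1) and 1 in glmTreat. DTL, a ubiquitin ligase adaptor that acts in S phase, had the smallest p, at 1.69 (SE 0.31, adjusted p = 0.00033), and MCM7, a subunit of the replicative helicase, differed by 0.76 (SE 0.16, adjusted p = 0.001). CDC25B, a phosphatase that activates the mitotic kinase CDK1, departed from these lists. It stood at 280.2 and 266 CPM with the empty vector, 104 and 77.1 with MGA, 279 and 287 with siNC and 324 and 306 with siMYC. All 6 libraries other than MGA were at least 2-fold above both MGA libraries, and its interaction was -1.73 (SE 0.17, adjusted p = 3.3e-08).

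**Figure D4:**
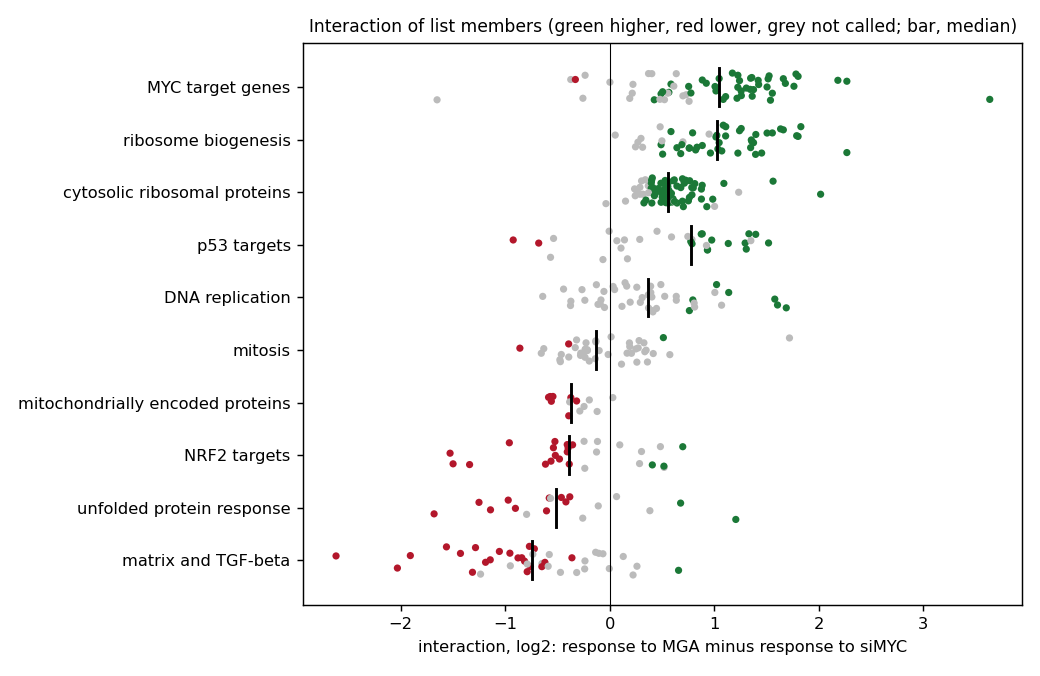
Interaction (log2, response to MGA minus response to siMYC) of each tested member of 10 gene lists, coloured by call, with a black bar at the median. Points spread mostly above 0 for the MYC target, ribosome and p53 lists, around 0 for mitosis, and mostly below 0 for the NRF2, unfolded protein and matrix lists.

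Targets of p53, the DNA damage and stress regulator, were higher with MGA than with siMYC for 13 of 30 members and lower for 2. Of all genes 10.3% were higher and 8.22% lower, so the lower share is near the background. With MGA 11 members rose and 0 fell (median 0.57), and with siMYC 5 rose and 4 fell (median -0.07). Among all genes 4.96% rose and 4% fell with MGA. With siMYC 19% rose and 20% fell, so neither siMYC share of the list stands above the background. The higher members numbered 8 without empty vector replicate B, 7 without siNC replicate B, 9 to 11 with other size factors, 5 in DESeq2, 2 in limma on log2(TPM + 1) and 3 in glmTreat. MDM2, the ligase that degrades p53, stood at 315 and 306 CPM with the empty vector, 545 and 576 with MGA, 141.5 and 163 with siNC and 143 and 146 with siMYC. It rose with MGA by 0.85 and did not pass the test with siMYC (-0.08, adjusted p = 0.59), an interaction of 0.93 (SE 0.15, adjusted p = 5.8e-05). GADD45A, a stress sensor, stood at 348.5 and 393 CPM with the empty vector, 821 and 785 with MGA, 30 and 39.7 with siNC and 36.3 and 24.6 with siMYC. Its controls differed by -3.39 on the log2 scale, more than its interaction of 1.29 (SE 0.23, adjusted p = 0.00022). CDKN1A, which encodes the inhibitor p21 and is a p53 target as well, went the other way. It rose with both, by 0.48 with MGA and 1.16 with siMYC, an interaction of -0.68 (SE 0.16, adjusted p = 0.0034), although its MGA call was lost without any 1 of the 4 overexpression libraries (adjusted p from 0.051 to 0.079). The other lower member was the secreted stress factor GDF15, at -0.92.

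Matrix and TGF-beta genes lay in the other direction. Of 41 members 40 passed the filter, and 21 were lower in the interaction, with a median of -0.75. The matricellular gene CYR61 was higher (0.66, adjusted p = 0.027), a call lost with upper-quartile size factors (adjusted p = 0.074) and library sizes alone (0.11) and without empty vector replicate B (0.098), MGA replicate B (0.11), siNC replicate B (0.19) or siMYC replicate B (0.069). With siMYC 31 rose and 1 fell (median 0.73), whereas with MGA 5 rose and 4 fell (median 0). The lower genes numbered 22 to 26 with other size factors, 18 in DESeq2, 11 in limma on log2(TPM + 1) and 10 in glmTreat. As background, 8.22% of all genes were lower in the main fit. With siMYC 19% of all genes rose and 20% fell, and with MGA 4.96% rose and 4% fell. FN1, which encodes fibronectin, stood at 313 and 359 CPM with the empty vector, 312 and 303 with MGA, 868 and 684 with siNC and 2208 and 1609 with siMYC. Its MGA libraries lay at or below the empty vector libraries with no call (-0.12, adjusted p = 0.66), and the interaction was -1.43 (SE 0.18, adjusted p = 1.9e-06). TGFB2, a TGF-beta ligand, stood at 106.5 and 103 CPM with the empty vector, 73.0 and 83.0 with MGA, 91.4 and 103 with siNC and 281 and 261 with siMYC, an interaction of -1.91 (SE 0.20, adjusted p = 1.1e-07). ITGA3, an integrin that binds laminin, stood at 865 and 961 CPM with the empty vector, 925 and 933.5 with MGA, 504 and 529.5 with siNC and 1179 and 1147 with siMYC, an interaction of -1.14 (SE 0.12, adjusted p = 4.7e-08). Markers of fibroblasts and smooth muscle summed to 34.3 to 62.8 CPM in 6 libraries and 184 and 194 with siMYC, almost all of it from COL1A1 (164 and 172 CPM with siMYC), while DCN had no counts in any library and COL1A2 at most 1.

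MET, the receptor of hepatocyte growth factor, had among the smallest p of genes called with siMYC alone. It stood at 536 and 512 CPM with the empty vector, 552 and 486 with MGA, 187 and 134 with siNC and 684 and 677 with siMYC. Its siNC level stood apart from the other 3 groups. The log2 fold change was -0.01 with MGA (adjusted p = 0.98) and 2.10 with siMYC (SE 0.11, adjusted p = 5.1e-14), an interaction of -2.11 (SE 0.16, adjusted p = 2.0e-10). ABL2, a kinase of the ABL family, was instead called with MGA alone. It stood at 263 and 307 CPM with the empty vector, 695 and 725.5 with MGA, 90.7 and 95.0 with siNC and 111 and 86.5 with siMYC, an interaction of 1.21 (SE 0.17, adjusted p = 1.3e-05).

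**Figure D5:**
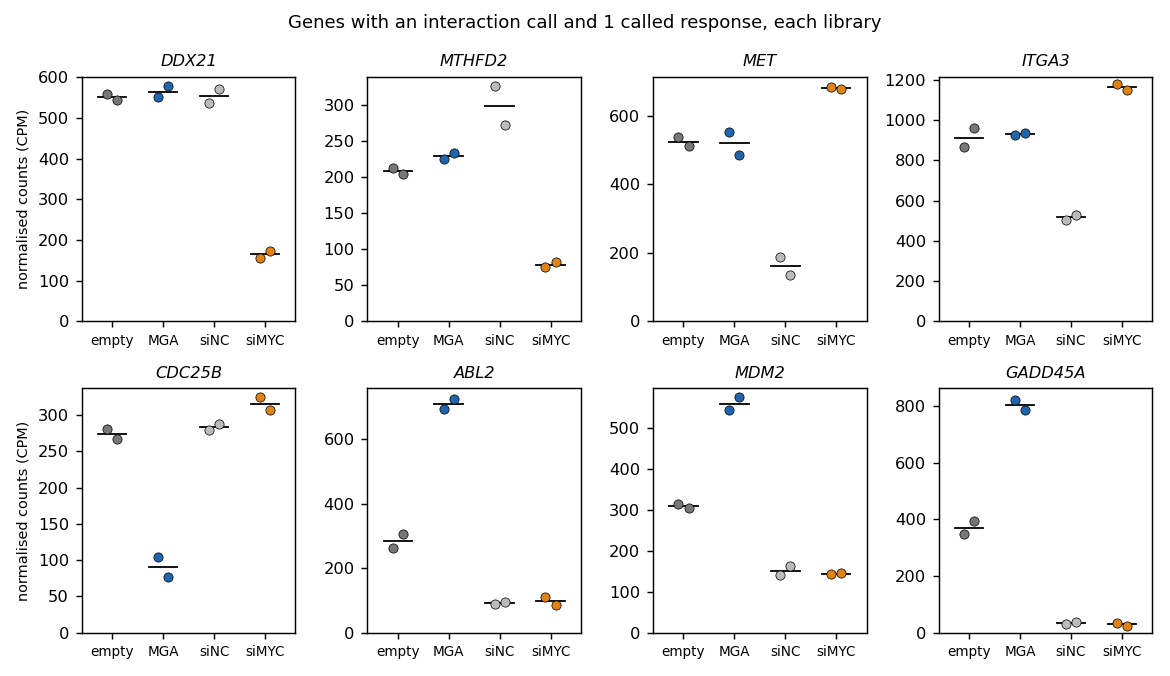
Normalised counts (CPM, linear axes from 0) in each library of 8 genes with an interaction call of which 1 response passed the test, with a bar at the mean of the 2 libraries. DDX21, MTHFD2, MET and ITGA3 moved with siMYC, and CDC25B, ABL2, MDM2 and GADD45A with MGA. The siNC points lie well below the empty vector for MET, ITGA3, ABL2, MDM2 and GADD45A.

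NRF2 targets, which detoxify and supply NADPH, were lower with MGA than with siMYC for 15 of 27 and higher for 3, the reductase GSR, the ferritin chain FTL and SRXN1. Of all genes 8.22% were lower and 10.3% higher, so the higher share is near the background. With siMYC 14 members rose and 3 fell, and with MGA 7 fell and 2 rose. These counts stand beside 19%, 20%, 4% and 4.96% of all genes, in that order. Without MGA replicate B, 9 were lower, in DESeq2 11, in limma on log2(TPM + 1) 9 and in glmTreat 4. The higher members numbered 1 without empty vector replicate A and 5 without siNC replicate A. The opposite genes of the list were the AKR1C genes above and PGD, an enzyme of the pentose phosphate pathway. PGD had an interaction of -0.62 (SE 0.13, adjusted p = 0.001), and its MGA call was lost without any 1 of the 4 overexpression libraries (adjusted p from 0.073 to 0.2), and its siMYC call without siNC replicate A (0.17) or siMYC replicate B (0.22). ABCC3, an export pump, stood at 484 and 488 CPM with the empty vector, 436 and 402 with MGA, 331.5 and 394 with siNC and 784 and 810.0 with siMYC. Its interaction was -1.34 (SE 0.13, adjusted p = 4.2e-08), with a call for siMYC and none for MGA.

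The unfolded protein response list behaved in a related way, with 10 of 18 lower and 2 higher. Of all genes 8.22% were lower and 10.3% higher, so the higher share is near the background. With siMYC 8 members rose and 2 fell, and with MGA 2 rose and 4 fell. These counts stand beside 19%, 20%, 4.96% and 4% of all genes, in that order. The lower members numbered 6 without empty vector replicate A or either MGA library, 6 in DESeq2, 4 in limma on log2(TPM + 1) and 1 in glmTreat. HYOU1, a chaperone of the endoplasmic reticulum, stood at 177 and 156 CPM with the empty vector, 163 and 154 with MGA, 175 and 161 with siNC and 317 and 279.8 with siMYC. The siMYC libraries stood above the other 6, which overlapped, an interaction of -0.90 (SE 0.17, adjusted p = 0.00042). CANX, the calnexin of the same compartment, was higher instead, at 0.68 (SE 0.11, adjusted p = 9.1e-05), and fell with siMYC by 0.73. The other higher member, HERPUD1, a degradation factor of that membrane, was of the opposite class, with 0.63 with MGA and -0.58 with siMYC. MGA no longer passed without empty vector replicate A (adjusted p = 0.15), empty vector replicate B (0.085) and MGA replicate A (0.19), and its siMYC call without siMYC replicate B (0.055). In DESeq2 neither passed (adjusted p = 0.15 and 0.14).

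Transcripts of the mitochondrial genome fell with MGA. Of 13 protein-coding transcripts, 10 fell with MGA and 2 with siMYC, with medians of -0.46 and -0.08, and 7 were lower in the interaction and 0 higher. The lower ones numbered 8 to 10 with other size factors, 6 in DESeq2, 7 in limma on log2(TPM + 1) and 0 in glmTreat. As background, 4% of all genes fell with MGA and 20% with siMYC, and 8.22% were lower in the interaction. MT-CO2, a subunit of cytochrome c oxidase, stood at 3399 and 3432 CPM with the empty vector, 2182 and 2221 with MGA, 2931 and 2793 with siNC and 2612 and 2865 with siMYC. Both MGA libraries lay below the other 6, and the interaction was -0.57 (SE 0.10, adjusted p = 0.00012). Mitochondrial genes as a whole took 2.73% and 2.74% of counts with MGA and 3.38% to 3.97% in the others, the MGA libraries being those in which MGA took 9.54% and 9.68%. The part of that share in the result was not tested beyond the scaling alternatives.

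Of 10 MYC-MAX network members tested, 2 were higher and 1 lower in the interaction (30% called). Of 15 PRC1.6 members, 2 were higher and 0 lower (13.3%). Of all genes 18.5% had an interaction call, and MGA itself counts in both lists. MAX stood at 54.4 and 55.2 CPM with the empty vector, 75.7 and 80.6 with MGA, 42.9 and 35.6 with siNC and 31.7 and 37.4 with siMYC, and its interaction of 0.69 (SE 0.27) did not pass the test (adjusted p = 0.074). In the MYC-MAX network, MGA and MYC themselves were higher and MLXIP, a glucose sensor, was lower (-0.93, SE 0.21, adjusted p = 0.0023), while the MAX-binding repressors MNT, MXD1, MXD3, MXD4 and MXI1 had no interaction call. MNT rose with MGA by 0.99 (adjusted p = 0.019) and with siMYC by 0.51 (adjusted p = 0.036). The first was lost without either empty vector library (0.094 and 0.16) or MGA replicate B (0.2), and the second without siNC replicate A (0.27), either siMYC library (0.14 and 0.061), empty vector replicate B (0.051) and in DESeq2 (0.26). MXD4 rose with siMYC by 1.66 (SE 0.18, adjusted p = 3.9e-08), with no call for MGA (0.92, adjusted p = 0.17). In the PRC1.6 complex, MGA apart, CBX3, a chromodomain protein, was higher (0.57, SE 0.15, adjusted p = 0.01), a call lost with library sizes alone (adjusted p = 0.074), in DESeq2 (0.094) and without empty vector replicate B (0.087), and the other 13 members had none. Of the 15 members, 2 fell with MGA and 1, MGA itself, rose, and 5 fell and 1 rose with siMYC. As background, 4% of all genes fell and 4.96% rose with MGA, and 20% fell and 19% rose with siMYC.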

How the data were processed

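RNA of A549 cells was sequenced after poly(A) selection in 8 libraries, 4 groups of 2, per the labels' protocols. Per the submitters' processing notes the tools were STAR and RSEM and the genome build hg19 (versions, annotation and strand: not given in the sources used here). Per the file headers the deposited values are expected counts per gene (RSEM estimates, in which reads shared by copies are divided, so they need not be whole) and TPM, scaled by library and gene length. The deposited expected counts were rounded, and filterByExpr (at least 10 counts, 15 in total) left 11218 genes. All 8 libraries were fitted together with TMM in edgeR 4.0.16 (R 4.3.3) with 4 residual degrees of freedom, and tested 2-sided with the quasi-likelihood F test for each treatment against its own control and for the interaction of both responses. Genes were called at a Benjamini-Hochberg adjusted p under 0.05 over all genes tested, and every adjusted p printed is from this test or a named alternative. An SE is the size of the log2 value divided by the square root of F. CPM are TMM-scaled counts per 1000000. With 2 libraries a group no exact test of single genes can pass a threshold of 0.05. Replicates of each group differed by more than counting noise (chi-square per degree of freedom 1.18, 1.12, 1.82 and 1.86 in the empty vector, MGA, siNC and siMYC groups).

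The members, the 33 gene lists and the tests were chosen with earlier results of these data known. Named were the network genes, the 15 genes of each opposite class with the smallest larger p, the 10 largest interactions each way, up to 4 called members of each list and up to 5 genes of each other class, of which the text shows a part. Alternatives were other size factors, leaving out the MGA and MYC rows, other filters on low counts, DESeq2 1.42.0, limma 3.58.1 (voom, and log2 TPM plus 1 or 0.1), glmTreat against a fold of 1.5, a replicate block and leaving out each library. Fits of each experiment alone and sums over the AKR1C copies were added after seeing the data. In counts simulated for the interaction over 11218 genes, 11.9% of 1.5-fold, 38.8% of 2-fold and 86.4% of 4-fold changes were recovered. Changes were set for 67, 67 and 66 genes in that order, all with an average log2 CPM of at least 4, and the rest had no interaction. Far fewer genes differed there than were called in the data, so the adjustment was stricter. Genes with lower counts were not among those changed. These shares therefore need not hold for the data in either direction.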

Additional observations from a re-analysis of the deposited data

How the results depend on the processing

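The count of genes with an interaction call stayed within 1.5 times of 2076 with RLE or upper-quartile size factors, library sizes alone, without the MGA and MYC rows, with other filters, with voom and with a replicate block. It was 827 in DESeq2, 347 and 331 in limma on log2(TPM + 1) and log2(TPM + 0.1), and 447 in glmTreat, which tests against a fold of 1.5. In these settings the genes higher with MGA than with siMYC numbered 429, 152, 139 and 239 and the lower ones 398, 195, 192 and 208. Genes up with MGA and down with siMYC numbered 7, 2, 2 and 0, and genes down with MGA and up with siMYC 40, 12, 10 and 3. With library sizes alone 714 genes were higher, beside 1154, and the opposite classes held 18 and 182 genes, while upper-quartile size factors gave 25 in the first. When each library was left out in turn, the count called ranged from 1309 to 1937, the higher from 713 to 1066, the lower from 573 to 871, and the opposite classes from 15 to 51 and from 40 to 88. Fitting each experiment alone gave 61 and 111. The letters A and B were not treated as pairs, since the labels name no shared culture, batch or day. Deviations of same-lettered libraries correlated at -0.002 between empty vector and MGA and at 0.254 between siNC and siMYC (6527 genes with an average log2 CPM of at least 5), so that in the siRNA experiment they moved together in part. With the replicate block 2292 genes were called, and the opposite classes held 68 and 114. Of 3348 interaction values of 169 named genes under the alternatives, 2940 kept direction and call, 400 lost the call, 7 gained it and 1 changed sign, RP11-345J4.8 without siNC replicate B (-0.77, adjusted p = 0.81), a gene with few counts whose interaction ran from that value to 9.32 without single libraries. OIP5-AS1 had MGA log2 differences of 0.33 and 0.35 on the TPM scale with the added 1 and 0.1 (adjusted p = 0.69 for both). The cause of these changes was not tested. The shallowest library held 820428 counts, and 38.8% of 2-fold interactions were recovered in a simulation with fewer changed genes than were called. The lack of a call therefore does not show that responses were alike.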

Other observations

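Of 19 heat shock genes 16 fell with siMYC and 8 with MGA, and 9 were higher with MGA than with siMYC and 1 was lower, beside 10.3% and 8.22% of all genes, with medians of -0.22 with MGA and -0.81 with siMYC. HSPH1, a cytosolic chaperone, stood at 317 and 355 CPM with the empty vector, 306 and 336.5 with MGA, 305 and 244 with siNC and 129 and 87.8 with siMYC, an interaction of 1.24 (SE 0.19, adjusted p = 2.9e-05). CCT2, a subunit of the chaperonin that folds actin and tubulin, differed by 0.77 (SE 0.14, adjusted p = 0.00018). The lower gene was HSPB1, a small heat shock protein, at 265.1 and 265.0 CPM with the empty vector, 231 and 211.5 with MGA, 334 and 390.1 with siNC and 629 and 601 with siMYC. Its MGA libraries were the lowest of the 8 and its siMYC libraries the highest, but MGA did not pass the test (-0.26, adjusted p = 0.18), and the interaction was -1.02 (SE 0.15, adjusted p = 1.4e-05). The higher genes numbered 6 with upper-quartile size factors or library sizes alone, 7 in DESeq2, 0 in limma on log2(TPM + 1) and 1 in glmTreat. As background, 20% of all genes fell with siMYC and 4% with MGA. Among 23 genes of the integrated stress response, 5 were higher and 2 lower, the latter a share near the background, including ASNS, the asparagine synthetase, at 1.3 (SE 0.25, adjusted p = 0.00053) and VLDLR, a lipoprotein receptor, at -1.16 (SE 0.25, adjusted p = 0.0015). The lower ones numbered 1 without empty vector replicate A, either MGA library, siNC replicate B or siMYC replicate A, and the higher ones 3 in DESeq2 and 0 in limma on log2(TPM + 1).

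Of 30 lysosome genes that passed the filter, 10 were lower with MGA than with siMYC and 2 were higher, with 21 up and 1 down with siMYC and 6 up and 2 down with MGA. Of all genes 8.22% were lower and 10.3% higher, 19% rose and 20% fell with siMYC, and 4.96% rose and 4% fell with MGA. The lower members numbered 5 without empty vector replicate B and 13 or 14 with upper-quartile size factors or library sizes alone, 7 in DESeq2, 3 in limma on log2(TPM + 1) and 1 in glmTreat. The protease CTSD stood at 385.5 and 385 CPM with the empty vector, 374 and 410.1 with MGA, 220.0 and 294 with siNC and 459 and 513 with siMYC, an interaction of -0.89 (SE 0.16, adjusted p = 0.0002). Higher members were SQSTM1, an autophagy receptor (0.41, adjusted p = 0.0059, lost with upper-quartile size factors at 0.056 and library sizes alone at 0.1), and the cholesterol transporter NPC1, named after its value was seen, whose call was lost without any 1 of the 8 libraries. NFKB2, a subunit of NF-kB, stood at 279 and 294 CPM with the empty vector, 478 and 457 with MGA, 141 and 116 with siNC and 123 and 91.4 with siMYC, an interaction of 0.94 (SE 0.18, adjusted p = 0.00041). Its list had 5 higher and 2 lower members of 24 tested, the latter a share near the 8.22% of all genes. The higher ones numbered 2 in DESeq2, 3 with other size factors, 0 in limma on log2(TPM + 1) and in glmTreat, 3 without either empty vector library or MGA replicate B and 11 without siMYC replicate A, and the lower ones 4 without siNC replicate A and 1 without siNC replicate B.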
